A study of Homo sapiens with 12 samples.

Results

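The genes described here are 10 regulators of the G1 and S phases of the cell cycle: the D-type cyclins CCND1 and CCND3, the E-type cyclins CCNE1 and CCNE2, the A-type cyclin CCNA2, the cyclin-dependent kinases CDK2, CDK4 and CDK6, the CDK inhibitor CDKN1B and the phosphatase CDC25A. They were chosen by gene symbol, with earlier results of these data known. Each of the 10 matched 1 of the 20308 genes in the expression table. RNA was measured in C4-2, an established prostate cancer cell line that grows without testicular androgens. The cells carried an ALKBH5 overexpression construct (oeALKBH5, treatment labelled oeALKBH5) or an empty vector (NC, no treatment). The enzyme ALKBH5 takes the methyl group off N6-methyladenosine (m6A) in RNA. Each group had 3 replicates, and the values below come from the input libraries, which were made from ribosome-depleted total RNA without the m6A pull-down. The labels name neither the promoter that drives ALKBH5 nor whether the cells are a clone or a pool. Nor do they say if the replicates were separate cultures, and p-values therefore cover only library-to-library spread, which may be technical.

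Cells pass from G1 into S phase when cyclin-dependent kinases, switched on by cyclins, phosphorylate the retinoblastoma protein RB and release E2F transcription factors. D-type cyclins with CDK4 or CDK6 act first and answer to growth signals, E-type cyclins with CDK2 act next, and cyclin A2 with CDK2 or CDK1 works during replication. CDC25A activates CDK2 by removing inhibitory phosphates, and p27, the product of CDKN1B, binds and blocks cyclin E and cyclin A kinases.

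Values are FPKM, which scale fragments to transcript length and to all mapped fragments, so levels may be compared between genes. Absolute depth is unknown. Relative to NC replicate 1, depths read from the ratio that low genes (under 1 FPKM) shared most often were 1.07, 0.783 and 0.83 in the oeALKBH5 libraries, against 1.13 and 0.999 in NC replicates 2 and 3. ALKBH5 itself had 80.3, 74.3 and 72.5 FPKM in oeALKBH5 libraries, against 64.9, 61.1 and 58.2 FPKM in NC libraries; the groups did not overlap, but limma over all genes did not call the difference (log2 fold change 0.30, SE 0.10, adjusted p = 0.114). Luminal prostate markers such as KLK3 (943 ± 52.8 FPKM in oeALKBH5 and 1003.5 ± 14.8 FPKM in NC, mean ± SD, n = 3 each) were high; of the 11 such markers tested, limma called 1, the keratin gene KRT8, with 223 ± 13.2 FPKM in oeALKBH5 and 137 ± 8.44 FPKM in NC libraries (log2 fold change 0.70, adjusted p = 0.00242), and the groups did not overlap in 5. Over all tested genes limma called 5.45%, and the groups did not overlap in 28.1%. The summed markers of endothelial cells stayed at or under 1.12 FPKM, and those of immune cells lay between 5.67 and 8.37 FPKM in oeALKBH5 libraries and between 0.521 and 4.28 FPKM in NC libraries. Fibroblast markers summed to 4.08 to 28.1 FPKM in oeALKBH5 and 4.05 to 13.1 FPKM in NC libraries, with DCN and LUM at 0. Basal and neuroendocrine markers summed to 38 to 41.9 FPKM in oeALKBH5 and 4.75 to 16.2 FPKM in NC libraries, mostly ENO2, while CHGA and INSM1 were at 0. ENO2 was the 1 gene called of the 4 tested in that list. It had 37.5 ± 2.52 FPKM in oeALKBH5 and 5.18 ± 4.58 FPKM in NC libraries (log2 fold change 2.88, limma adjusted p = 0.00709). The part of these markers in the results below was not tested.

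The promoters of members were read from RefSeq on GRCh38.p14, from 250 bases before to 50 bases after the gene start. Windows of 7 of the 10 genes are described here, 10 windows in all. No window was given for CCND1 and CDK2, and the promoter of CCNE2 is not reported here. Each window was searched on both strands for E2F-type letters (TTNNCGC with C or G at each N), the CHR letters TTTGAA of cell cycle promoters, the CCAAT box and the E-box CACGTG, which MYC-type factors bind. Over all 35116 promoter windows of the table, 13% held E2F-type letters, 15.2% held TTTGAA, 34.6% held CCAAT and 7.26% held CACGTG. Of the 10 windows described, the 3 with more than 1 match are printed 5′ to 3′ on the gene's strand, with matches in capitals. They show how the letters differ between a kinase, an inhibitor and a phosphatase gene. They lie at chr12:57752261-57752560 on the minus strand for CDK4, chr12:12717118-12717417 on the plus strand for CDKN1B and chr3:48188368-48188667 on the minus strand for CDC25A.
CDK4: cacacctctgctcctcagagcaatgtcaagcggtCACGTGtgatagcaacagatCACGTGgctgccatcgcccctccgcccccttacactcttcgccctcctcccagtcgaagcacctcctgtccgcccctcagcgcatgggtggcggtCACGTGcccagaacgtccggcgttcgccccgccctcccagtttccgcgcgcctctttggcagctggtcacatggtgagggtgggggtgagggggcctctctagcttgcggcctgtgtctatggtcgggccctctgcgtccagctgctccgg
CDKN1B: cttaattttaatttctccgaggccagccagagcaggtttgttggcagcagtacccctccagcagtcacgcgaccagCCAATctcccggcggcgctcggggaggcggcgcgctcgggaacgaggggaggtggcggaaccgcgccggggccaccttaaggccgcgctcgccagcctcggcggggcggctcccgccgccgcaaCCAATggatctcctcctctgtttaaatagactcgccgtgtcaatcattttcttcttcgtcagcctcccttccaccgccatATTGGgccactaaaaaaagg
CDC25A: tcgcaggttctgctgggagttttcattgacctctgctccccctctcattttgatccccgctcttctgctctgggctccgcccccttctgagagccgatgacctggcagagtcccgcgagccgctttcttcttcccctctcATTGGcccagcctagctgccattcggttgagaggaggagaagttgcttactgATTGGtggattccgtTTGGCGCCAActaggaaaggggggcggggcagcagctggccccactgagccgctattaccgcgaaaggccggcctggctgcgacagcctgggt

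CDK4 held 3 E-boxes, whose first bases lay at positions -216, -196 and -101 from the gene start. CDKN1B held 3 CCAAT boxes and CDC25A held 2, here read as CCAAT or, on the other strand, ATTGG. Only CDC25A, of the 7 genes whose windows are described, exactly matched the E2F-type letters. It held 2 overlapping matches on opposite strands, at -43 and -40, that form 1 run of letters. CCNA2 held 1 CCAAT box, 1 of the CDK6 windows held an E-box, 2 of the 3 CCND3 windows held a CCAAT box, and the CCNE1 window held none of the letters searched. None of these 7 genes held TTTGAA in its windows. Only exact letters were searched, so sites with variant letters were missed. A window without a match may therefore still hold such an element.

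In oeALKBH5 cells the RNA of the E-type cyclin CCNE2 and of its kinase CDK2 fell and that of the D-type cyclin CCND1 rose, while the other 7 genes did not pass the test. In such bulk RNA, fewer cells in a given phase and less RNA per cell cannot be told apart. The test was limma on log2(FPKM + 1) over the 12757 genes that averaged 0.5 FPKM or more, with Benjamini-Hochberg adjustment and a threshold of 0.05, and all 10 genes were among those tested. It called 3 of the 10, 1 higher and 2 lower, where it called 5.45% of all tested genes, 3.02% higher and 2.43% lower. The groups did not overlap in 6 of the 10 genes, 2 higher and 4 lower in oeALKBH5, against 28.1% of all tested genes. The median log2 fold change of the 10 was -0.40, beside 0.02 over all tested genes. The count of 3 depended on single libraries: it was 2 without oeALKBH5 replicate 1, 1 without oeALKBH5 replicate 2, oeALKBH5 replicate 3, NC replicate 1 or NC replicate 2, and 0 without NC replicate 3, where limma gave 5 of the 10 an unadjusted p under 0.05, as many as in the fit of all 6 libraries, in which 21.9% of all tested genes had one. Without the intensity trend CCNE2 alone was called, with adjusted p of 0.155 for CCND1 and 0.0912 for CDK2.

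**Figure D1:**
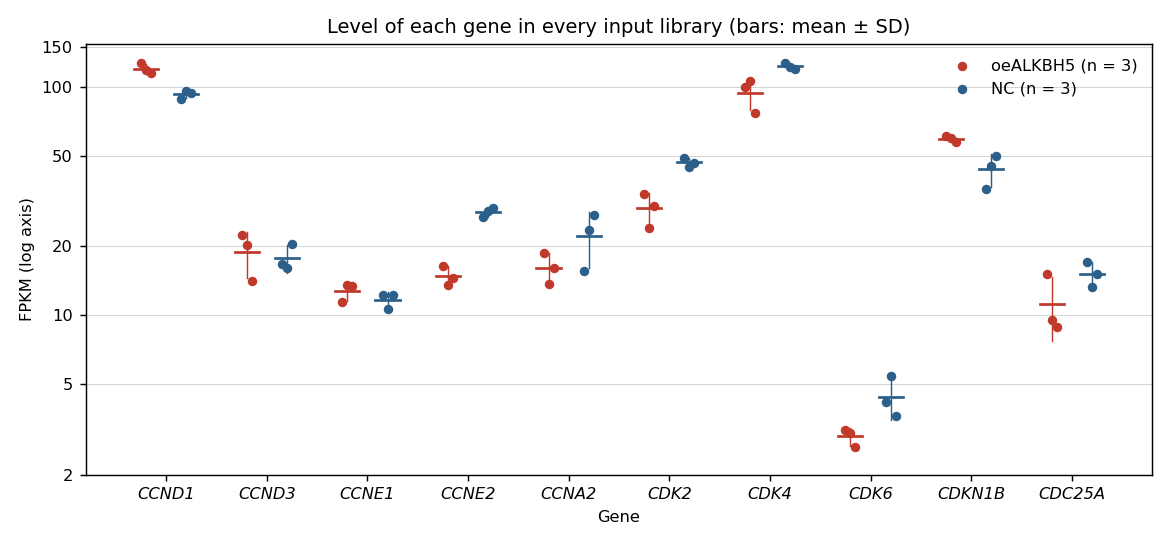
FPKM (log axis) of the 10 genes in each input library, oeALKBH5 in red on the left and NC in blue on the right, with the mean and SD of 3 libraries. CCNE2, CDK2, CDK4 and CDK6 lie lower in all oeALKBH5 libraries than in any NC library, CCND1 and CDKN1B lie higher, and the other 4 genes overlap.

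The order of levels differed at its top. In oeALKBH5 libraries CCND1 was the most abundant, at 120 FPKM on average, followed by CDK4 at 94.3, CDKN1B at 59.2 and CDK2 at 29.5 FPKM, and each of these neighbours was separated by its range. In NC libraries CDK4 came first at 123 FPKM and CCND1 next at 92.8 FPKM, and CDK2 at 46.7 FPKM and CDKN1B at 43.5 FPKM overlapped. From CCND3 down to CDC25A in oeALKBH5 libraries, neighbours in the order, CCND3, CCNA2, CCNE2, CCNE1 and CDC25A, did not separate. The same held from CCNE2 down to CDC25A in NC libraries, whereas CDC25A was above CCNE1 there. CDK6 was the lowest of the 10 in both groups, at 2.95 FPKM in oeALKBH5 and 4.4 FPKM in NC libraries.

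Cyclin D1, the product of CCND1, carries growth signals to CDK4 and CDK6. CCND1 had 127, 119 and 115 FPKM in oeALKBH5 libraries, against 88.6, 96.2 and 93.7 FPKM in NC libraries. All oeALKBH5 libraries were above all NC libraries, and the means of 120 ± 6.31 and 92.8 ± 3.88 FPKM (SD, n = 3 each) had a ratio of 1.29. The log2 fold change was 0.37 (SE 0.08, 95% interval 0.18 to 0.56, limma adjusted p = 0.0417). Without any 1 of the 6 libraries the change ran from 0.33 to 0.40 and the call was lost each time, with an adjusted p from 0.0843 (without oeALKBH5 replicate 3) to 0.128 (without NC replicate 3).

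CCND3 encodes cyclin D3, another D-type cyclin. It had 22.4, 20.3 and 14.1 FPKM in oeALKBH5 libraries, against 16.7, 16.1 and 20.6 FPKM in NC libraries. The groups overlapped fully, with both the highest and the lowest value in oeALKBH5 libraries. Its log2 fold change of 0.07 had a 95% interval of -0.38 to 0.52 (limma adjusted p = 0.879), and it turned to -0.06 without oeALKBH5 replicate 1. The third D-type cyclin, CCND2, named after its values were seen, was hardly detected, at a mean of 0.158 FPKM in oeALKBH5 and 0.0826 FPKM in NC libraries, and was not tested. CCND1 thus made up most of D-type cyclin RNA: 86.5 ± 2.22% of the sum of CCND1 and CCND3 in oeALKBH5 and 83.9 ± 1.86% in NC libraries. That sum was 139 ± 10.3 FPKM in oeALKBH5 and 111 ± 4.7 FPKM in NC libraries, without overlap (exact two-sided permutation test, p = 0.1). No exact permutation test of 3 libraries against 3, here or below, can give a smaller p.

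CDK4 and CDK6 are the partner kinases of D-type cyclins. CDK4 had 99.5, 106 and 77.1 FPKM in oeALKBH5 libraries, against 127, 122 and 120 FPKM in NC libraries. All oeALKBH5 libraries were below all NC libraries, oeALKBH5 replicate 3 furthest, but the log2 fold change of -0.40 (SE 0.12, 95% interval -0.67 to -0.12) did not pass the test over all genes (limma adjusted p = 0.0993). CDK4 overlaps TSPAN31, which encodes a tetraspanin and had 21.8 ± 4.4 FPKM in oeALKBH5 and 14.1 ± 1.48 FPKM in NC libraries; whether fragments were counted by strand is not given in the sources used here, so reads of the shared stretch could fall to either gene.

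CDK6 had 3.15, 3.06 and 2.65 FPKM in oeALKBH5 libraries, against 4.16, 5.42 and 3.63 FPKM in NC libraries. These groups did not overlap either, and the log2 fold change of -0.44 had a 95% interval of -1.0 to 0.12 (limma adjusted p = 0.333). CDK4 exceeded CDK6 by a factor of 31.8 ± 2.79 in oeALKBH5 and 28.8 ± 5.54 in NC libraries. The 2 kinases summed to 97.2 ± 15.5 FPKM in oeALKBH5 and 128 ± 3.73 FPKM in NC libraries (exact permutation p = 0.1).

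The paralogous E-type cyclins both activate CDK2. CCNE2 fell, and CCNE1 did not pass the test. The ratio of the pair, given below, did not overlap between groups. Its exact permutation test cannot give a p under 0.1 with 3 libraries a group. That test could therefore not pass the threshold, and it does not decide whether the pair differed. CCNE2 had 16.5, 13.5 and 14.5 FPKM in oeALKBH5 libraries, against 26.8, 28.6 and 29.4 FPKM in NC libraries. The highest oeALKBH5 library lay far below the lowest NC library, and the spread within each group was small. The means were 14.8 ± 1.5 and 28.3 ± 1.33 FPKM (oeALKBH5 and NC, SD, n = 3 each), a ratio of 0.524, and the log2 fold change was -0.89 (SE 0.14, 95% interval -1.21 to -0.57, limma adjusted p = 0.0104). Of all tested genes, 2.13% had a lower log2 fold change. Of the 6 fits with 1 library missing, only that without NC replicate 3 lost the call (log2 fold change -0.86, adjusted p = 0.0574).

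CCNE2 overlaps INTS8, a subunit gene of the Integrator complex, and NDUFAF6, a gene for assembly of respiratory complex I. INTS8 had 41.2 ± 7.4 FPKM in oeALKBH5 and 59.9 ± 14.8 FPKM in NC libraries, and NDUFAF6 had 19.2 ± 2.13 FPKM in oeALKBH5 and 13.5 ± 0.835 FPKM in NC libraries. These neighbours lay on either side of no change, and the part of shared reads in the CCNE2 value was not tested.

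CCNE1 had 11.4, 13.6 and 13.4 FPKM in oeALKBH5 libraries, against 12.3, 10.6 and 12.2 FPKM in NC libraries. The groups overlapped, and the log2 fold change of 0.12 had a 95% interval of -0.26 to 0.50 (limma adjusted p = 0.73). The ratio of CCNE1 to CCNE2 within a library, which does not depend on the scaling between libraries, was 0.692, 1.01 and 0.926 in oeALKBH5 libraries, against 0.461, 0.37 and 0.414 in NC libraries. All oeALKBH5 ratios were above all NC ratios, so that CCNE1 supplied 46.4 ± 4.86% of E-type cyclin RNA in oeALKBH5 and 29.3 ± 2.27% in NC libraries. On the log2(FPKM + 1) scale the ratio differed by 1.01, at an exact permutation p = 0.1 (adjusted p = 0.6 over the 8 pairs compared). The 2 E-type cyclins together had 27.6 ± 0.438 FPKM in oeALKBH5 and 40 ± 1.4 FPKM in NC libraries (exact permutation p = 0.1).

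**Figure D2:**
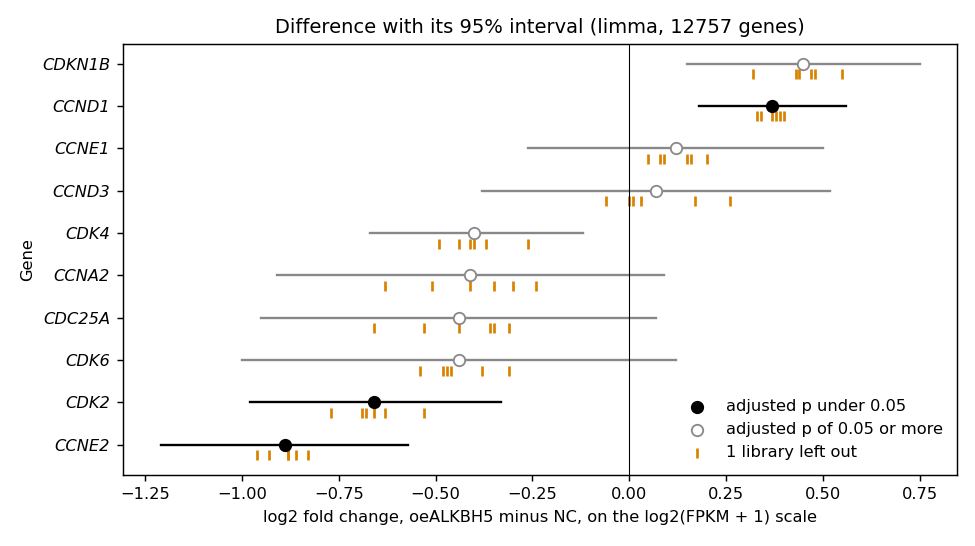
Log2 fold change of each gene, oeALKBH5 minus NC on the log2(FPKM + 1) scale, with its 95% interval from limma over 12757 genes; filled points passed the threshold, and orange ticks are fits without 1 library. CCNE2 at -0.89 and CDK2 at -0.66 lie furthest below 0, and CCND3 is the gene whose ticks cross 0.

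CDK2 is the kinase that E-type cyclins and cyclin A2 activate. It had 34, 24.2 and 30.1 FPKM in oeALKBH5 libraries, against 48.8, 44.7 and 46.5 FPKM in NC libraries. All oeALKBH5 libraries were below all NC libraries, with oeALKBH5 replicate 2 lowest. The means of 29.5 ± 4.96 and 46.7 ± 2.05 FPKM (oeALKBH5 and NC) had a ratio of 0.631, and the log2 fold change was -0.66 (SE 0.14, 95% interval -0.98 to -0.33, limma adjusted p = 0.0347). The call held without oeALKBH5 replicate 1 and was lost without each of the other 5 libraries. The adjusted p was then 0.0729 (oeALKBH5 replicate 2 left out), 0.083 (oeALKBH5 replicate 3), 0.108 (NC replicate 1), 0.0853 (NC replicate 2) or 0.122 (NC replicate 3).

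CCNA2, the S phase cyclin, had 18.7, 13.7 and 16.1 FPKM in oeALKBH5 libraries, against 15.6, 23.6 and 27.5 FPKM in NC libraries. The groups overlapped because NC replicate 1 was low, and the log2 fold change of -0.41 (95% interval -0.91 to 0.09) did not pass the test (limma adjusted p = 0.32). Without NC replicate 1 it was -0.63 (adjusted p = 0.138). That library was also the lowest of the NC libraries in 13 of 18 tested mitotic cyclins and regulators and in all 8 proliferation markers, which summed to 537, 440 and 435 FPKM in oeALKBH5 libraries, against 537, 697 and 681 FPKM in NC libraries; the part of this in the CCNA2 value was not tested. CCNA2 overlaps EXOSC9, a subunit gene of the RNA exosome, with 13.2 ± 1.67 FPKM in oeALKBH5 and 18.6 ± 3.37 FPKM in NC libraries. CDK1, the mitotic kinase that cyclin A2 also binds, was named after its values were seen and stood at 321 ± 24.6 FPKM in oeALKBH5 and 302 ± 25 FPKM in NC libraries (log2 fold change 0.09, limma adjusted p = 0.584).

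CDC25A had 15.2, 9.49 and 8.88 FPKM in oeALKBH5 libraries, against 17.1, 13.3 and 15.2 FPKM in NC libraries. The oeALKBH5 group had 1 high library, replicate 1, which reached into the NC range, and this gene had the widest relative spread of the 10 in that group, an SD of 31.2% of the mean. Its log2 fold change was -0.44 (95% interval -0.95 to 0.07, limma adjusted p = 0.291), and it was -0.66 when oeALKBH5 replicate 1 was left out (adjusted p = 0.114).

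**Figure D3:**
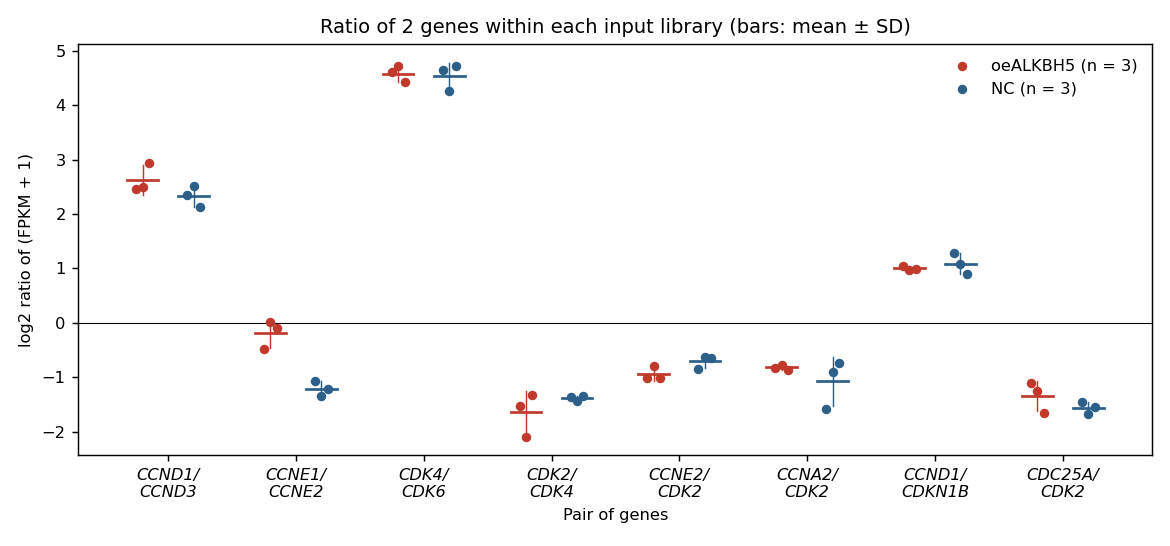
Log2 ratio of (FPKM + 1) of 2 genes within each input library for the 8 pairs compared, oeALKBH5 in red on the left and NC in blue on the right, with the mean and SD of 3 libraries. CCNE1/CCNE2 is the 1 pair of the 8 whose groups do not overlap, with means of -0.20 in oeALKBH5 and -1.21 in NC libraries.

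Ratios between partners otherwise overlapped. CCNE2 per CDK2 was 0.508 ± 0.0442 in oeALKBH5 and 0.607 ± 0.0501 in NC libraries, as both genes were lower (exact permutation p = 0.2). CCND1 per CDKN1B was 2.03 ± 0.0587 in oeALKBH5 and 2.17 ± 0.298 in NC libraries (exact permutation p = 0.6). CDK2 per CDK4, CCNA2 per CDK2, CDC25A per CDK2, CDK4 per CDK6 and CCND1 per CCND3 had exact permutation p-values between 0.3 and 0.8. All 8 pairs had an adjusted p of at least 0.6, and a p that misses the threshold does not show that the ratios were alike.

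CDKN1B, which encodes the inhibitor p27, had 60.7, 59.9 and 57.2 FPKM in oeALKBH5 libraries, against 35.8, 44.9 and 49.8 FPKM in NC libraries. The groups did not overlap, but NC libraries were spread widely (SD 16.3% of the mean, beside 3.12% in oeALKBH5), and the log2 fold change of 0.45 (SE 0.13, 95% interval 0.15 to 0.75) did not pass the test (limma adjusted p = 0.0934). Without NC replicate 1, the lowest library, it was 0.32. Among the other CDK inhibitor genes, 2 of 6 tested passed the test, both higher, and the other 4 did not. The median log2 fold change of all 6 was 0.31. Of all tested genes, limma called 3.02% higher.

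CDKN1A, the inhibitor p21 that p53 induces, had 61.3, 60.8 and 56.1 FPKM in oeALKBH5 libraries, against 44.6, 40.5 and 35.2 FPKM in NC libraries (log2 fold change 0.56, SE 0.12, limma adjusted p = 0.0323). CDKN1C, the related inhibitor p57, had 9.8, 8.19 and 11.3 FPKM in oeALKBH5 libraries, against 5.06, 2.99 and 2.69 FPKM in NC libraries (log2 fold change 1.26, SE 0.26, limma adjusted p = 0.0297). Neither gene overlapped between groups. Each kept its call only without NC replicate 1 among the 6 fits that left out a library, and in the other 5 the adjusted p reached 0.118 for CDKN1A and 0.112 for CDKN1C. The INK4 inhibitors of CDK4 and CDK6 were low: CDKN2A, CDKN2C and CDKN2D were at 3.68, 9.7 and 6.87 FPKM on average in oeALKBH5 and 3.26, 10.3 and 2.95 FPKM in NC libraries, none of them called, and CDKN2B was under 1 FPKM in every library and not tested. These 4 were named after their values were seen.

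**Figure D4:**
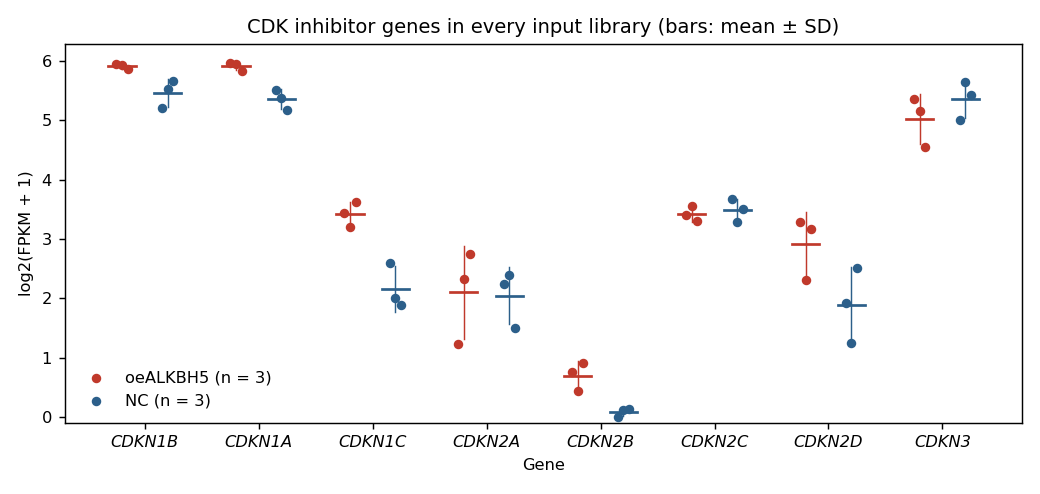
CDK inhibitor genes on the log2(FPKM + 1) scale in each input library, oeALKBH5 in red on the left and NC in blue on the right, with the mean and SD of 3 libraries. The CDKN1 family, CDKN1B, CDKN1A and CDKN1C, lies higher in every oeALKBH5 library than in any NC library; CDKN2B does too, but under 1 FPKM.

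Other genes of the pathway were counted in 10 lists, chosen with earlier results of these data known. Of all tested genes, limma called 3.02% higher and 2.43% lower. None of 5 tested other G1 and S phase genes, of 18 mitotic cyclins and regulators, of 15 genes of the CDK-activating kinase and transcriptional CDKs or of 23 genes of cyclin, p27 and CDC25A turnover was called by limma, with 2, 1, 4 and 5 genes at an unadjusted p under 0.05 (21.9% of all tested genes) and median log2 fold changes of 0.10, -0.09, 0.02 and 0.07. Of 15 other cyclins and CDKs, 1 rose, CCNI, an atypical cyclin, with 326 ± 21.2 FPKM in oeALKBH5 and 242 ± 3.49 FPKM in NC libraries (limma adjusted p = 0.0106). In that list 1 fell, CDK14, a membrane-linked kinase, with 46.4 ± 3.07 FPKM in oeALKBH5 and 76.8 ± 11.1 FPKM in NC libraries (limma adjusted p = 0.0159). The CCNI call did not hold without NC replicate 3 (adjusted p = 0.0553), nor that of CDK14 without oeALKBH5 replicate 1, NC replicate 2 or NC replicate 3 (adjusted p up to 0.0688). Both calls were also lost without the intensity trend (adjusted p = 0.116 for CCNI and 0.0696 for CDK14).

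Falls were counted in the RB and E2F family and among E2F target genes of S phase. Of 21 tested genes of the RB and E2F family, 3 fell and none rose, with a median log2 fold change of -0.28. E2F1 had 13.9 ± 1.74 FPKM in oeALKBH5 and 22.5 ± 2.14 FPKM in NC libraries (limma adjusted p = 0.0491), E2F2 had 3.38 ± 0.884 and 8.32 ± 1.94 FPKM (adjusted p = 0.0464), and RBBP4, a histone-binding partner of RB, had 262 ± 21.8 and 332 ± 13.3 FPKM (adjusted p = 0.0399), each with oeALKBH5 first. All 3 lost their calls in each of the 6 fits without a library, with adjusted p up to 0.158, 0.136 and 0.141. Of 22 E2F target genes of S phase, 11 fell and 11 did not pass the test, and all 22 log2 fold changes were negative, with a median of -0.64. Of all 12757 tested genes, limma called 2.43% lower, and 6090 had a negative log2 fold change. As both lists were chosen with earlier results of these data known, their counts are a description only. The 4 target genes with the smallest p, PCNA, TYMS, MCM3 and RRM2, had log2 fold changes of -1.14, -1.02, -0.86 and -0.67. They kept their calls in all 6 fits without a library. The count of 11 was 9 and 7 when replicate 1 of oeALKBH5 or of NC was left out, 6 for replicate 2 of either group or oeALKBH5 replicate 3, and 5 for NC replicate 3. With all libraries it was 7 without the filter on low values and 4 without the intensity trend. Beside the median of -0.64 over all 22 target genes, the log2 fold change was -0.89 for CCNE2 and -0.66 for CDK2.

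Among 24 genes of growth signal inputs to D-type cyclins, 3 rose and 21 did not pass the test, with a median log2 fold change of 0.16. Over all tested genes that median was 0.02, and limma called 3.02% higher. The growth factor receptor EGFR had 68 ± 2.3 FPKM in oeALKBH5 and 47.5 ± 5.06 FPKM in NC libraries (limma adjusted p = 0.0341). FOXO4, a factor that AKT restrains, had 9.71 ± 2.04 FPKM in oeALKBH5 and 3.53 ± 0.704 FPKM in NC libraries (adjusted p = 0.0233, limma). The immediate early gene FOS had 8.72, 5.28 and 6.36 FPKM in oeALKBH5 libraries, against 0, 2.2 and 0.173 FPKM in NC libraries (limma adjusted p = 0.0235). EGFR and FOXO4 lost their calls in all 6 fits without a library (adjusted p up to 0.0939 and 0.0915), and FOS in 5, all but that without NC replicate 2 (adjusted p up to 0.0972). Of 8 proliferation markers, 1 fell, PCNA, already counted among the E2F targets, where limma called 2.43% of all tested genes lower. The median log2 fold change of the 8 was -0.20, and 7 were negative. MKI67, named after its values were seen, had 39.3 ± 4.9 FPKM in oeALKBH5 and 43.1 ± 15.1 FPKM in NC libraries (log2 fold change -0.08, adjusted p = 0.871, limma).

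**Figure D5:**
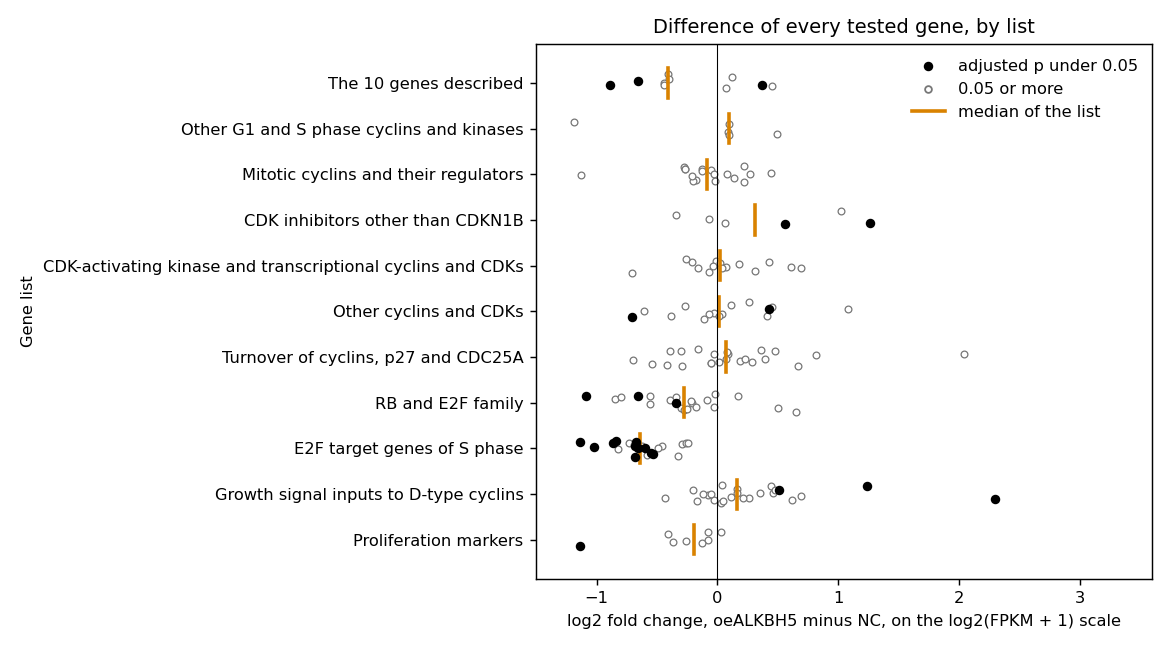
Log2 fold change, oeALKBH5 minus NC on the log2(FPKM + 1) scale, of every tested gene in the 10 genes described and in each of 10 pathway lists; filled points passed the threshold and the orange line is the list's median. All 22 E2F target genes of S phase lie below 0, with a median of -0.64, while the medians of the mitotic and transcriptional lists are -0.09 and 0.02.

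Among the 7798 genes that averaged 10 FPKM or more, those whose log2(FPKM + 1) over the 6 input libraries ran most like CCNE2 were CLSPN, HNRNPA2B1 and RPS7, with Pearson r of 0.9988, 0.9971 and 0.997. CLSPN encodes claspin, the fork checkpoint adaptor named in the study's title, and had a log2 fold change of -1.37. For CDK2 the nearest were EEFSEC, CHORDC1 and PAK1IP1, with r of 0.9932, 0.9928 and 0.9924, and for CCND1 they were GDE1, FCHO2 and OAT, with r of 0.9932, 0.9931 and 0.992. With 6 libraries in 2 groups, such values mostly describe the difference between groups, and they are given as a description without a test.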

How the data were processed

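The series holds 12 libraries of input and m6A pull-down RNA; the 6 m6A peak lists were not used here, since an annotation of their build, hg19, is needed to place peaks in genes. The deposited gene table has no unit in its header; its values were taken as FPKM made by the authors, given their range and the tools Cufflinks and Cuffdiff, which the submitters' processing notes name with cutadapt 1.9.3, HISAT2 2.0.4 and hg19, without the role of each. Read counts were not used, so no counting interval was computed.

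Gene IDs were matched to symbols (19434 of 20308). Genes that averaged 0.5 FPKM or more were fitted as log2(FPKM + 1), using limma 3.58.1 (R 4.3.3) with its intensity trend, no block and Benjamini-Hochberg adjustment over all 12757 tested genes; fold changes on this scale understate those of low genes. Ratios and sums had exact two-sided permutation tests in Python 3.11.15 (scipy 1.17.1). The fit was tested on simulated data. Alternatives were pseudocounts of 0.1 and 0.5, no filter or 1 FPKM, no trend, robust moderation, quantile normalization, median of ratios scaling, a replicate block and leaving out each library. Same-numbered libraries did not deviate together (r of -0.017, -0.0205 and 0.0315).

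The members and lists were chosen with earlier results of these data known. Genes named are the 10 members, ALKBH5, up to 4 called genes per list with the smallest p, for each called member the 3 genes nearest in pattern, and marker genes, beside genes that overlap a member; others are marked as named after their values were seen.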

Additional observations from a re-analysis of the deposited data

How the results depend on the processing

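Pseudocounts of 0.1 and 0.5, a filter of 1 FPKM, robust moderation, quantile normalization and median of ratios scaling kept the count of 3 called members. It was 2 with no filter on low values, where CDK2 was lost (adjusted p = 0.0731), and 1, CCNE2, without the intensity trend; leaving out 1 library gave 0 to 2. Of all genes, 695 were called, against 421 with no filter, 270 without the trend and 232 to 436 with 1 library left out. Of the 155 tested genes of the 10 pathway lists that are not members, 21 were called, beside 5.45% of all tested genes. The E2F target list held 11 of the 21, and the lists were chosen with earlier results of these data known. The count of 21 was 9 with no filter, 5 without the trend and 5 to 14 with 1 library left out. Named list genes whose calls were lost both with no filter and without the trend were CDKN1A, CDKN1C, E2F1, E2F2, RBBP4, EGFR and FOS. FOXO4 and the marker gene ENO2 (limma adjusted p = 0.0504) were lost with no filter, and E2F1 and RBBP4 also under quantile normalization. A pseudocount of 0.1 also lost E2F1 and FOS (limma adjusted p = 0.0501 and 0.055). Robust moderation lost E2F1 as well (limma adjusted p = 0.0505). With the replicate number as a block, 344 genes, 1 member (CCNE2) and 10 list genes were called. Whether the numbers pair the samples is not known, though same-numbered libraries did not deviate together. Leaving out 1 library turned the sign of 4 uncalled values: the log2 fold change of CCND3 ran from -0.06 (without oeALKBH5 replicate 1) to 0.26, and the differences in log2 ratio from -0.09 to 0.13 for CDK4/CDK6 (also -0.03), from -0.01 to 0.42 for CCNA2/CDK2 and from -0.18 to 0.02 for CCND1/CDKN1B. The cause was not tested. Counts of m6A peaks in the members and a comparison of paralogous proteins were planned and not run. With 3 libraries a group, exact tests cannot go below 0.1, or below 0.2 with 1 library left out.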
